A study of Arabidopsis thaliana with 12 samples.

Results

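Probes for 3 genes of chromatin and DNA repair were followed across all 12 arrays: the histone H3.1 gene AT5G65360, the chromatin remodelling gene chr31 (AT1G05490) and the aprataxin-like gene APTX (AT5G01310). These 3 genes were taken from the 692 probes, of 3439 in all, that the platform annotation pairs with exactly 1 gene, and each had 1 such probe. They were picked with their differences between the groups already known, so those differences are given as a description without a test. The samples were wild-type Arabidopsis thaliana of the ecotype Wassilevskija, with 6 arrays of total RNA from plants given water (H2O) and 6 from plants kept 3 h in MS, a mineral plant medium, with 60 mM sucrose. The labels name neither a tissue nor an age, give no time for the water treatment, and do not say whether the arrays within a group are separate plants. No group had MS or sucrose alone, so their effects cannot be told apart from each other or from treatment time.

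Histone H3 is a core protein of the nucleosome, around which DNA is wound, and H3.1 is the form made mainly while DNA is being replicated and put into new chromatin behind the fork. The gene chr31 encodes an ATP-dependent remodeller of the SNF2 family, also known as CLASSY3, which helps bring RNA polymerase IV to its targets so that small RNAs can direct DNA methylation. Aprataxin, known best from human cells, trims the adenylate that a failed ligation leaves at a DNA break, which lets the break be sealed. All 3 proteins therefore act on DNA or its packaging, but at different steps.

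Each array gave 1 intensity per probe on a linear scale that ended at 100. Array medians lay between 0.171 and 0.188 in water and between 0.325 and 0.490 in MS with sucrose, where arrays 1 and 2 had the highest, 0.479 and 0.490. Arrays with consecutive numbers (1 and 2, 3 and 4, 5 and 6, called number pairs here) resembled each other in both groups, which the labels do not mention. Because the medians differed between the groups, each gene is also given by its position, meaning the share of the probes on the same array that were dimmer. Position does not depend on how an array is scaled, and it serves here to compare arrays, not the transcript levels of different genes. In whole-sample RNA, fewer cells of a type and less RNA per cell cannot be told apart.

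AT5G65360 was the member that was brighter in MS with sucrose. Its intensity ran from 0.103 through a median of 0.117 to 0.159 on the water arrays, and from 0.404 through 0.447 to 0.844 on the sucrose arrays. The groups did not overlap, and the brightest sucrose arrays were numbers 1 and 2, at 0.776 and 0.844, against 0.404 to 0.472 on the other 4. The means were 0.122 ± 0.0203 and 0.555 ± 0.20 (SD, n = 6 each), a 4.54-fold ratio as deposited. The arrays on which the gene was brightest were also those with the highest medians, and divided by the array median the ratio of means was 2.04-fold. The part of the array medians in the deposited ratio was not tested further. By position the histone gene went from 33.1% to 48.1% in water (mean 37.8% ± 5.38) to 57.7% to 76.2% in MS with sucrose (mean 64.8% ± 7.82), again without overlap. It thus passed from below the middle of the array to above it on all 6 sucrose arrays.

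The remodeller gene chr31 was dimmer in MS with sucrose. Its intensity ran from 1.15 through 1.27 to 1.30 in water and from 0.328 through 0.392 to 0.753 in MS with sucrose (lowest, median, highest). Water arrays were close to each other, the groups did not overlap, and the brightest sucrose arrays were again numbers 1 and 2, at 0.753 and 0.650. The means were 1.24 ± 0.0656 and 0.478 ± 0.179 (SD, n = 6 each), so water was 2.59-fold higher as deposited and 5.78-fold higher after division by the array median. By position chr31 fell from 90.6% to 92.4% in water to 50.4% to 71.5% in MS with sucrose (mean 58.5% ± 8.51). On the sucrose arrays it was still above the middle, and highest on numbers 1 and 2 (71.5% and 65.2%).

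APTX was also dimmer in MS with sucrose, and was the least even of the 3 among the sucrose arrays. Its intensity ran from 0.752 through 1.05 to 1.44 in water and from 0.143 through 0.282 to 0.677 in MS with sucrose (lowest, median, highest). The groups did not overlap, although the gap between them was narrow, with sucrose array 6 at 0.677 and water array 3 at 0.752. The means were 1.11 ± 0.269 and 0.370 ± 0.233 (SD, n = 6 each), a 3.01-fold higher water mean as deposited and 6.04-fold after division by the array median. By position APTX was between 87.4% and 92.4% in water, between 23.2% and 38.3% on sucrose arrays 1 to 4, and at 74.9% and 76.6% on sucrose arrays 5 and 6. Numbers 5 and 6 were the brightest arrays for APTX in both groups, at 1.41 and 1.44 in water and 0.635 and 0.677 in MS with sucrose.

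**Figure D1:**
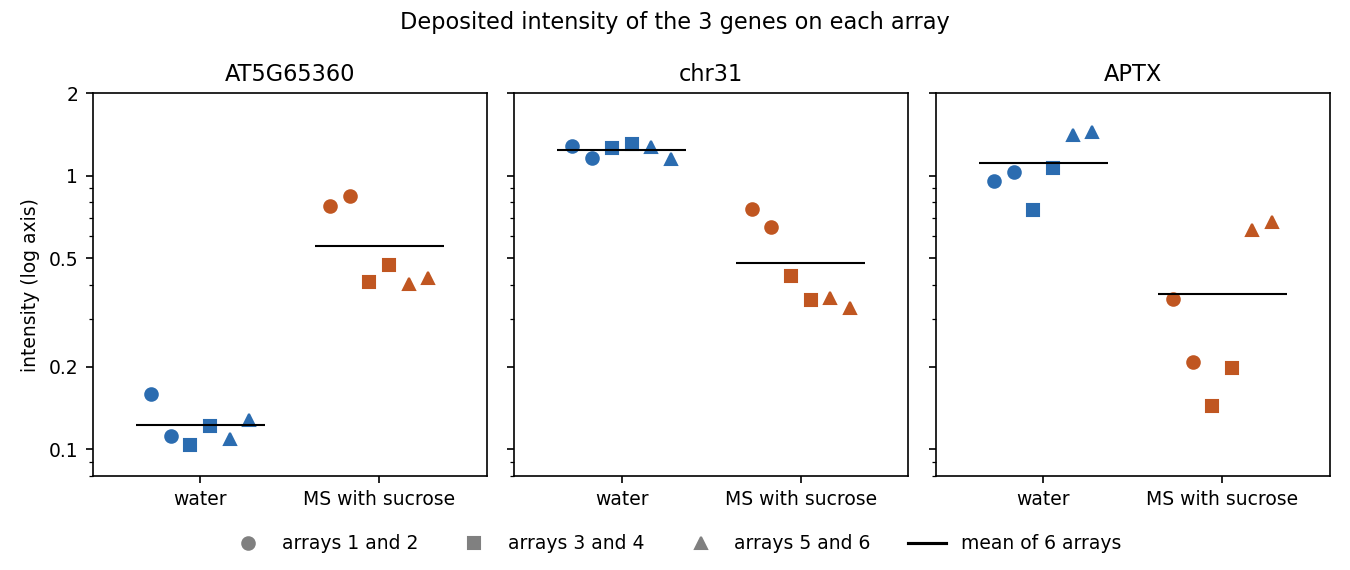
Deposited intensity (log axis, linear units of a scale ending at 100) of AT5G65360, chr31 and APTX on each of 6 water and 6 sucrose arrays. Each point is 1 array, its shape gives the number pair, and the line is the mean of the group. AT5G65360 lies higher and chr31 and APTX lie lower on every sucrose array, with 0.404 as the lowest sucrose value of AT5G65360 against 0.159 as its highest in water.

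**Figure D2:**
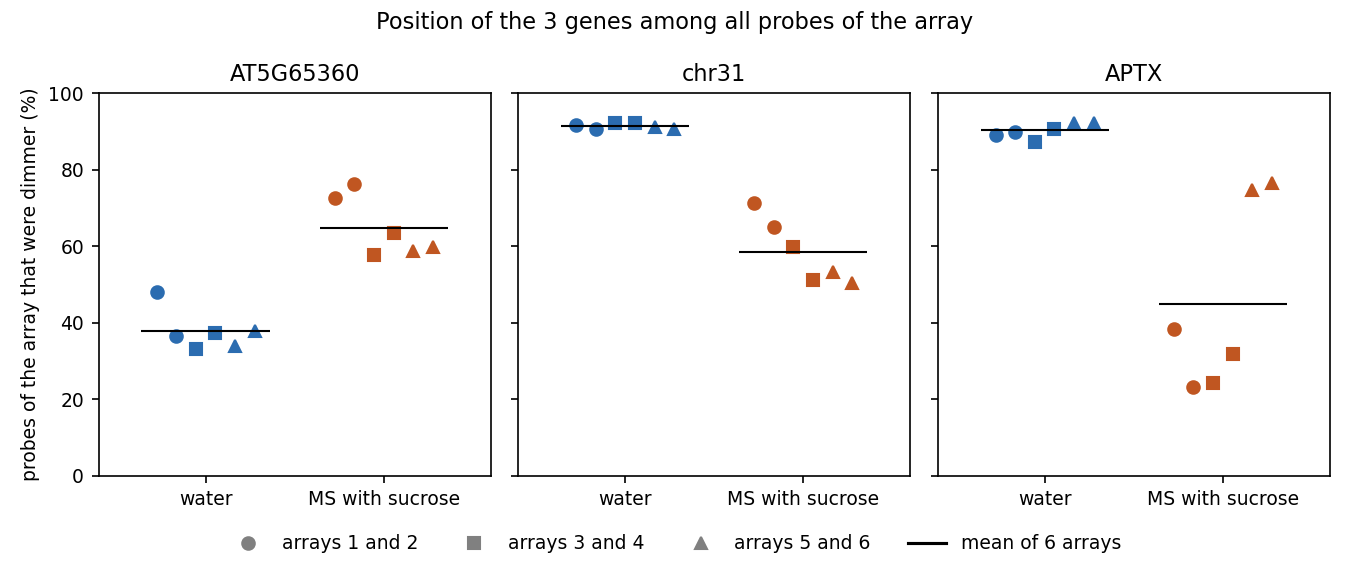
Position of the same 3 genes, as the percentage of the array's probes that were dimmer, on a linear axis from 0 to 100. Points are arrays, shapes are number pairs and lines are group means. APTX on sucrose arrays 5 and 6 (74.9% and 76.6%) stands above the other 4 sucrose arrays, which reach 38.3% at most.

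After quantile normalization, the log2 difference of sucrose minus water was 1.09 ± 0.16 for AT5G65360, -2.04 ± 0.14 for chr31 and -2.52 ± 0.45 for APTX (SE, n = 6 each). These are a 2.12-fold rise, a 4.11-fold fall and a 5.75-fold fall. The SEs and limma p-values of this fit take the 6 arrays of a group as separate samples. Both could be too small, since the arrays of a number pair resembled each other. The labels do not say whether such arrays are repeats of 1 sample. All 3 genes passed a limma adjusted p of 0.05, as did 41.8% of all probes (20.5% higher, 21.3% lower), but the genes were chosen on this contrast and nothing is read from that. Among all 3439 probes, 5 had a larger fall than APTX, 19 a larger fall than chr31 and 279 a larger rise than AT5G65360. The 2 falls thus lie at the edge of the distribution, and the rise of the histone gene is well inside it. Of the other single-gene probes, AT2G21720 (-3.10) and CYN, the cyanase gene (-3.10), fell more than APTX, and AT4G27510 (-1.89) and AT3G56010 (-1.87) came next after chr31. Around AT5G65360, AT2G32470 rose by 1.11 and AT4G09040 by 1.09, and AT5G06010 by 1.08 and AT3G13150 by 1.08. All of these passed the threshold in this fit, none was in the chromatin and repair lists, and they only show the scale of the differences. AT5G06010 was at 0.28 with median centring (limma adjusted p = 0.12), and AT4G27510 missed the threshold as deposited (adjusted p = 0.077). With number pairs averaged, AT3G13150, AT4G09040 and AT4G27510 missed it (limma adjusted p = 0.059, 0.084 and 0.075).

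**Figure D3:**
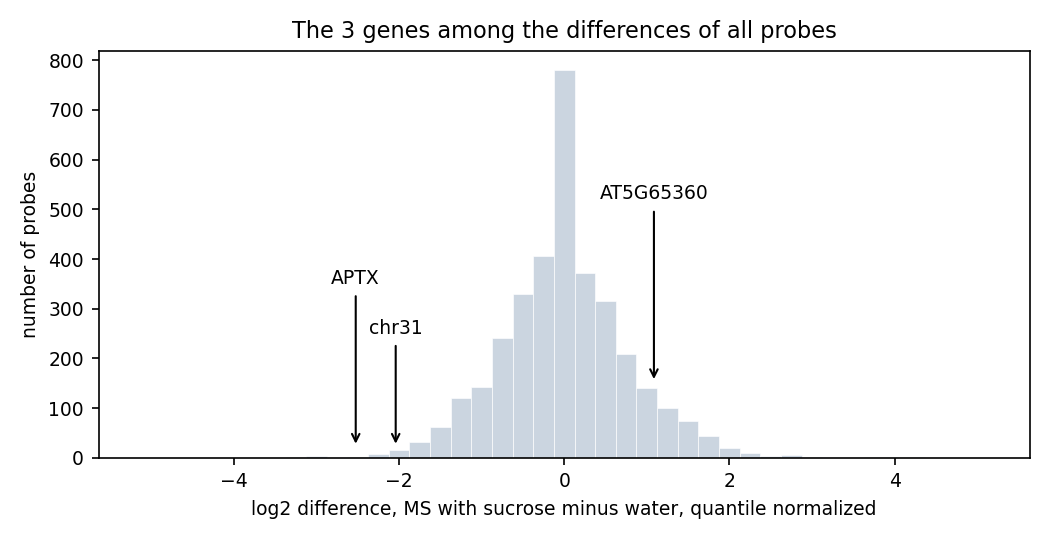
Number of probes (vertical axis) by log2 difference of MS with sucrose minus water after quantile normalization (horizontal axis), over all 3439 probes. Arrows mark APTX at -2.52 and chr31 at -2.04, in the lower tail, and AT5G65360 at 1.09, inside the upper part.

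The direction of all 3 genes was the same under each of 4 scalings, whereas the sizes moved. As deposited, the median probe was 0.68 higher in MS with sucrose on the log2 scale, and AT5G65360 was at 2.13, chr31 at -1.45 and APTX at -1.80, or 1.44, -2.14 and -2.49 relative to that median. With median centring they were at 1.03, -2.55 and -2.90, and with cyclic loess at 1.0, -1.91 and -2.44. Groups without overlap were common in the brighter direction as deposited (37.2% of all probes) and uncommon in the dimmer one (4.33%), while by position they made up 11.9% and 18.7%. Since the genes were picked for their differences, their lack of overlap is no added support.

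Within the number pairs, 2 arrays against 2, the differences kept their sign but not their size. AT5G65360 was at 1.31 for numbers 1 and 2, 1.01 for 3 and 4 and 0.93 for 5 and 6. For chr31 the fall was smallest, -1.61, for numbers 1 and 2, where the rise of AT5G65360 was largest, and was -2.30 and -2.21 for the others. APTX was at -3.04 and -3.10 for the first 4 numbers and at -1.44 for numbers 5 and 6, so no number pair was the extreme one for all 3 genes. Whether the differences vary between number pairs was not tested for these genes.

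**Figure D4:**
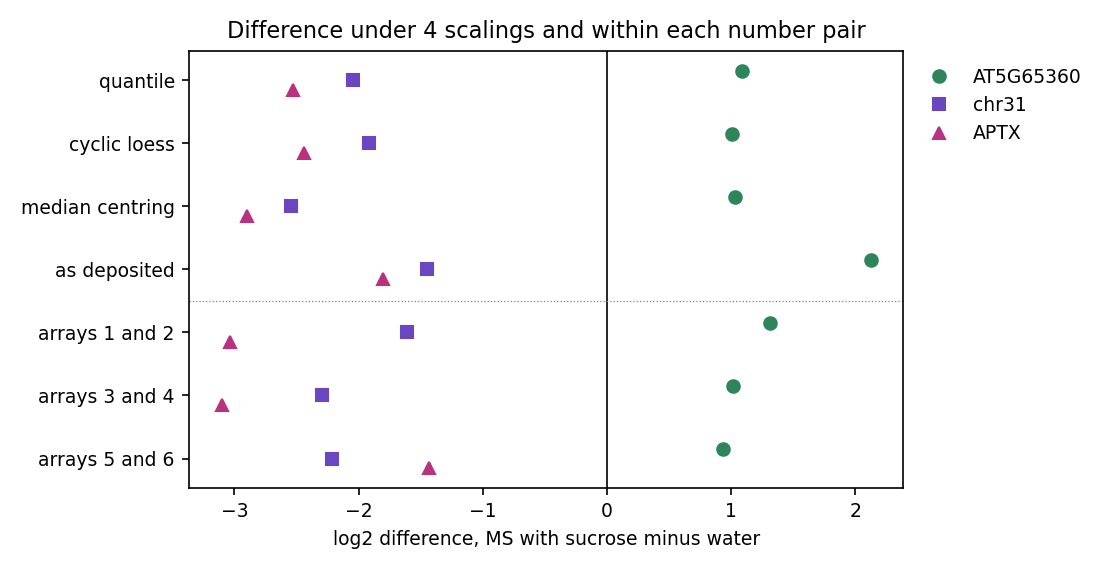
Log2 difference of MS with sucrose minus water (horizontal axis) for AT5G65360, chr31 and APTX under 4 scalings (upper rows) and within each number pair after quantile normalization (lower rows). Every point of AT5G65360 is above 0 and every point of chr31 and APTX below it, and APTX is at -1.44 for arrays 5 and 6 against -3.04 and -3.10 for the others.

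The spread among the sucrose arrays set APTX apart from the other members. On the log2 scale its SD was 0.25 in water and 1.11 in MS with sucrose, and of the 2407 probes above the floor on all 12 arrays only 41 varied more among the sucrose arrays. For chr31 the SDs were 0.12 and 0.33 and for AT5G65360 0.23 and 0.34, against a median probe at 0.20 and 0.36. In water, 18.8% of these probes varied less than chr31. Number pairs held 91.1% of the variance of APTX, 92.8% of that of AT5G65360 and 82.2% of that of chr31 among the sucrose arrays, where the median probe had 72.8%. Among the water arrays they held 71.6%, 42.8% and 77.5%, with 67.8% for the median probe. Most of the scatter of these genes in MS with sucrose was therefore between number pairs and not between the arrays of a pair. Some of the variance falls between pairs even where pairs do not differ, and this part was not taken off.

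Other genes of the same processes were taken from lists of histones, SNF2 remodellers, DNA methylation, histone chaperones and modifiers, DNA repair, HIT-domain proteins (the family of aprataxin) and DNA replication. The lists need not hold every gene of these processes. Of their 182 loci, the 3 genes above and 4 others had a probe of their own. Of these 4, 1 fell, 0 rose and 3 missed the threshold (limma, adjusted over all 3439 probes), while 23.4% of the single-gene probes were called higher and 20.7% lower. None of the 10 replication and cell division loci had a probe of its own. Of 7 green tissue markers 4 were measured, of which 1 was called higher and 3 missed the threshold, and on every array their position was between 89.5% and 99.8%. The marker called higher had deposited means of 44.3 in water and 45.9 in MS with sucrose, and these groups overlapped. Divided by the array median, its ratio of the sucrose mean to the water mean was 0.49, so its rise depended on the scaling. By position it was higher without overlap, 99.56% to 99.68% in water and 99.71% to 99.80% in MS with sucrose, as were 11.9% of all probes.

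The other H3.1 gene with its own probe, AT1G09200, did not pass the threshold. Its intensity ran from 0.149 to 0.210 in water and from 0.167 to 0.618 in MS with sucrose, and the groups overlapped. After quantile normalization its difference was -0.02 ± 0.25 (SE, limma adjusted p = 1), whereas as deposited it was 1.06 (adjusted p = 0.0067). Its sucrose arrays were uneven within a number pair, 0.167 on array 5 and 0.559 on array 6. The difference between the 2 H3.1 genes was not tested. Genes for H3.1 are close copies of each other, and how far each probe also binds the transcripts of the other copies was not tested.

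AT1G13370, also in the histone list, had a difference of 0.43 ± 0.39 (SE, limma adjusted p = 0.43), and its sucrose arrays went by number pair. They read 0.688 and 0.865 for numbers 1 and 2, 2.10 and 2.11 for 3 and 4, and 1.18 and 1.12 for 5 and 6, against 0.540 to 0.707 in water. Within numbers 1 and 2 the difference was -0.72 (limma adjusted p = 0.12), and within numbers 3 and 4 it was 1.5 (adjusted p = 0.018). Both fits had only 2 arrays against 2, and the arrays of a number pair resembled each other. Without numbers 1 and 2 this gene passed at 1.01 (limma adjusted p = 0.037), and as deposited at 0.99 (adjusted p = 0.0077). It did not pass with number pairs averaged (limma adjusted p = 0.67). Nor did it with number pairs as a random block, which lets the arrays of a pair correlate (limma adjusted p = 0.48).

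In the repair list, AT3G14890 fell by 1.19 on the log2 scale (SE 0.23, limma adjusted p = 0.0017). Its deposited means were nevertheless close, 0.273 ± 0.0283 in water and 0.262 ± 0.0748 in MS with sucrose (SD, n = 6 each), and as deposited the call was lost (-0.10, adjusted p = 0.67). By position it went from between 60.3% and 68.2% in water to between 25.2% and 53.2% in MS with sucrose, without overlap. By this measure 18.7% of all probes were lower without overlap, and as deposited the groups of this gene overlapped. With number pairs averaged, 3 against 3, its limma adjusted p was 0.073, and within numbers 3 and 4 its difference was -0.43 (limma adjusted p = 0.11). DME, the DNA glycosylase gene DEMETER of active demethylation, was listed at 0 on all 6 water arrays and on 4 sucrose arrays. It was at the floor on all 12 after scaling and could show no change.

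There were 4 more probes that the annotation pairs with several genes, all of them in the histone list. No single gene can be named from them, and they were added after the annotation had been seen. Probe 2392, with 3 such genes, was called higher by 0.54 (limma adjusted p = 0.0014), with 1.35 to 1.80 in water and 1.97 to 3.12 in MS with sucrose. By position it was also higher without overlap, 91.88% to 93.95% in water and 94.42% to 96.34% in MS with sucrose, as were 11.9% of all probes. With median centring it turned to -0.49 (limma adjusted p = 0.078), and with number pairs averaged its adjusted p was 0.052. Probe 2995, with 2 genes, fell by 1.19 on the log2 scale (limma adjusted p = 2.1e-04). As deposited it fell by 0.43 on that scale (limma adjusted p = 0.034). It passed as lower under each of the 4 scalings, but not within numbers 3 and 4 (limma adjusted p = 0.11) or 5 and 6 (0.16), 2 arrays against 2. Probes 3127 and 3667, with 2 genes each, had differences of -0.33 (limma adjusted p = 0.053) and -0.32 (0.25), but as deposited were called higher at 0.64 (limma adjusted p = 0.0023) and 0.72 (0.0017). Of the 6 histone probes other than that of AT5G65360, 1 rose and 1 fell after quantile normalization, where 20.5% of all probes were called higher and 21.3% lower, and for 5 of the 6 the call or its direction depended on the scaling.

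**Figure D5:**
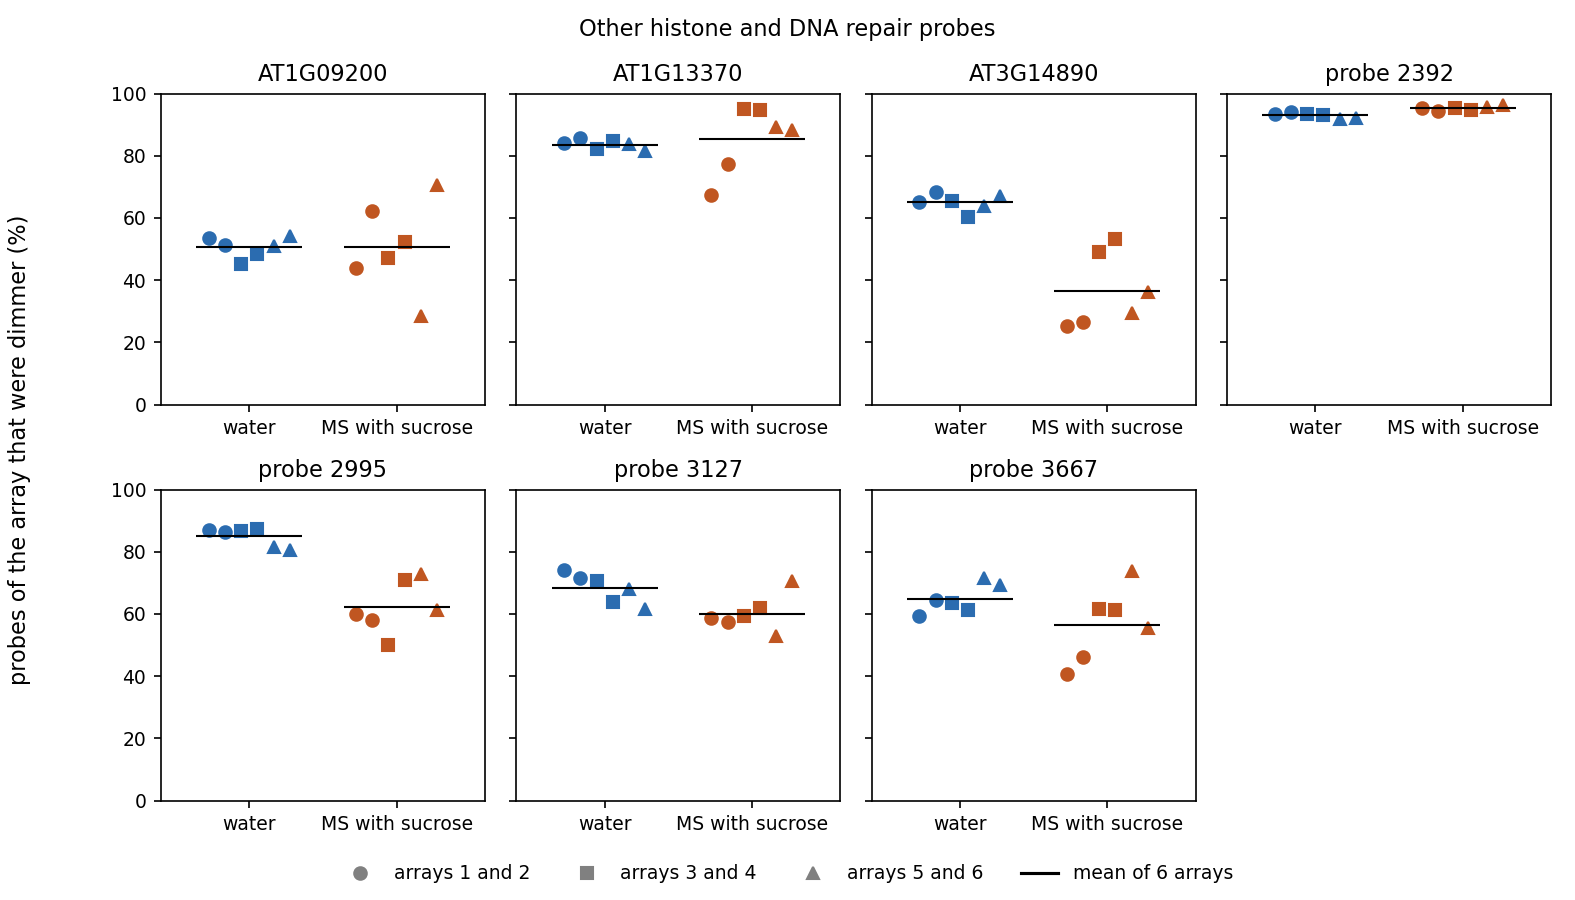
Position, as the percentage of the array's probes that were dimmer, of AT1G09200, AT1G13370, AT3G14890 and 4 probes shared by several histone genes. Points are arrays, shapes are number pairs and lines are means of 6 arrays. AT3G14890 is lower on every sucrose array (at most 53.2%) than in water (at least 60.3%), as are 18.7% of all probes by position, while AT1G09200 overlaps between the groups.

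Genes with a probe of their own were also ranked by how closely their array-to-array pattern inside the groups followed each member, after taking away the group means, over 12 arrays and 549 other probes. The closest to AT5G65360 were AT2G01400 (Pearson r = 0.89), AT4G12740 (0.87) and AT4G30150 (0.83). The closest to chr31 were AT2G29870 (r = 0.95), AT5G63830 (0.93) and AT2G43990 (0.90), and to APTX AT3G61680 (r = 0.90), AT2G25870 (0.88) and AT5G16230 (0.86). The closeness depended in part on the scaling. AT2G29870 was at 0.51 with median centring, and as deposited AT3G61680, AT2G25870 and AT5G16230 were at 0.79, 0.66 and 0.67. With cyclic loess AT5G63830 was at 0.80 and AT4G12740 at 0.74. These values describe the 12 arrays, whose number pairs all probes share, and the genes were picked as the highest of 549. Of these 9 genes, 4 rose in MS with sucrose, 1 fell and 4 missed the threshold, where 23.4% of the single-gene probes were called higher and 20.7% lower. Among the 3 closest to chr31, which fell, were AT2G29870 and AT5G63830, which rose.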

How the data were processed

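Total RNA of 12 samples was measured on arrays, and the authors deposited 1 linear spot intensity per probe and array. The reading of the spots, any background correction and the scaling are not stated in the labels or the file, and exact zeros cannot be read as absence. Groups and array numbers came from the labels. Gene names came from GEO's platform annotation, which can be old, updated by gene ID with a table of assembly TAIR10.1 that held 690 of the 692 single-gene probes. No coordinates or sequences were used.

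Arrays were brought to 1 median, floored at the 5th percentile of positive values (0.0487), put on log2 and quantile normalized. Differences were fitted over all 3439 probes with limma 3.58.1 (lmFit, eBayes; R 4.3.3) and Benjamini-Hochberg adjustment at 0.05, without a block. Differences can be understated for probes with values at the floor, which the 3 members did not reach on any array. P-values cover only the spread between these arrays, whose number limits the precision. Without a block, they could be too small, since the arrays of a number pair resembled each other and may be repeats of 1 sample. The steps were tested on simulated data, where 0.28% of unchanged probes and 73.1% of probes with a log2 change of 1 were called. The simulated noise was independent on each array, without number pairs or a shift of the array medians. It therefore could not check the p-values for these features. Figures used matplotlib 3.10.9.

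The members, gene lists and alternatives were chosen with earlier results of these data known. The naming rule took the members, list genes with their own probe (green tissue markers as counts only), the 3 genes most like each member inside the groups among probes above the floor on at least 10 arrays, and the 2 called genes on either side of each member in size. Same-numbered arrays of the groups deviated together (correlations 0.19 to 0.43, each above 0.1), so the numbers were taken as pairs for a fit with a replicate block.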

Additional observations from a re-analysis of the deposited data

Results flagged for a closer look

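For AT5G65360, water array 1 was brighter than the other 5 water arrays, with a log2 value of -2.04 against -2.68 to -2.46. Its gap to the nearest array was 0.656 of the whole range of the group, above Dixon's limit for a group of this size. It was the 1 array that stood apart in 20 sets of 6 arrays (6 of them of the 3 genes), where chance is expected to give about 1 in 20. Without it the difference of AT5G65360 was 1.16 in place of 1.09.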

How the results depend on the processing

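All 3 genes kept their direction under every alternative run. With 1 array left out, AT5G65360 lay between 1.0 and 1.16, chr31 between -2.21 and -1.98 and APTX between -2.83 and -2.36. The replicate block cannot move a difference in this balanced design (1.09, -2.04, -2.52), and its SEs were 0.11, 0.14 and 0.35 in place of 0.16, 0.14 and 0.45. These SEs could also be too small, since the block still takes the 2 arrays of a number pair as separate. The replicate block gave 1383 called probes in place of 1436, 1278 of them shared, and changed no call of a list gene. With number pairs as a random block, 1116 probes were called. Sizes that moved by more than 1 SD were, for AT5G65360, 2.13 as deposited, for chr31 -1.45 as deposited, -2.55 with median centring, -1.61 within numbers 1 and 2 and -2.30 within 3 and 4, and for APTX -1.44 within numbers 5 and 6. With 0.2 added in place of a floor they were 0.62, -1.55 and -1.70, and with 50 added 0.0062, -0.028 and -0.027, which shrinks such dim probes by construction. Called probes were 730 with number pairs averaged, 750 within numbers 3 and 4 and 674 within 5 and 6, but 1114 within 1 and 2, also 2 arrays against 2, and between 1323 and 1470 with 1 array left out. Of the 1436, 705 were higher and 731 lower, against 1848 and 227 of 2075 as deposited and 558 and 1039 of 1597 with median centring. Of the 4 other list genes, 1 was called, 2 as deposited, 2 without numbers 1 and 2, 0 with number pairs averaged and 1 with any 1 array left out. AT1G09200, not called, turned to 1.06 as deposited, 0.013 with 0.2 added, 0.00038 with 50 added, 0.014 within numbers 1 and 2 and 0.11 within 3 and 4, and ranged from -0.18 to 0.18 with 1 array left out. AT1G13370 turned to -0.10 with median centring and -0.72 within numbers 1 and 2, probe 2392 to -0.49 with median centring, and probes 3127 and 3667 to 0.64 and 0.72 as deposited. The cause was not tested. Alternatives for the shared histone probes, the neighbouring genes and the pattern likeness were added after seeing the data. Dim intensity near the floor limits DME.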
